A study of Mus musculus with 2 samples.

Results

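The genes described here are 10 components of the signaling route that leads from CD137 to NF-κB: *Traf1*, *Traf2*, *Traf3*, *Birc3*, *Nfkb1*, *Nfkb2*, *Rel*, *Relb*, *Nfkbia* and *Tnfaip3*. They were chosen by name as the pathway through which CD137 (4-1BB, the product of *Tnfrsf9*) signals, with no measured value in the rule, and they are 10 of the 27998 genes counted in the libraries. Their transcripts were measured in T cells that had infiltrated the pancreatic islets of NOD mice, a strain that develops autoimmune diabetes spontaneously. One library came from NOD.Foxp3-EGFP mice, called wild type here, and one from NOD.Tnfrsf9-/-.Foxp3-EGFP mice, called knockout, in which every cell type lacks CD137. Each was made from the pooled islets of 6 female mice aged 9 to 10 weeks, and mice of both strains carry the EGFP reporter that marks *Foxp3*-expressing cells. CD8 T cells and GFP+ CD4 regulatory T cells (Tregs), with cells bearing the myeloid marker CD11b gated out, were sorted into the same droplet library, so 1 library stands for each genotype, and genotype cannot be told apart from pool, sort, cell capture or sequencing.

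CD137 has no enzyme activity of its own. When it is cross-linked by its ligand it gathers the adaptors TRAF1, TRAF2 and TRAF3 together with the ubiquitin ligases cIAP1 (*Birc2*) and cIAP2 (*Birc3*). In the canonical branch, IκB kinase then marks the inhibitor IκBα (*Nfkbia*) for destruction and frees dimers of NF-κB1 (*Nfkb1*), c-Rel (*Rel*) and RelA. In the noncanonical branch, TRAF3 stops holding down the kinase NIK (*Map3k14*), so that NF-κB2 (*Nfkb2*) is processed and pairs with RelB (*Relb*). *Nfkbia* and *Tnfaip3*, which encodes the ubiquitin-editing enzyme A20, are induced by NF-κB and switch it off again. Several of the other genes of this set are themselves NF-κB targets, and c-Rel is known to be needed for the development of Tregs.

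What 5 of the genes share in sequence is a match to the κB consensus, the decamer that NF-κB dimers bind, close to the transcription start. RefSeq promoters (GRCm38.p6, 250 bases before to 50 bases after the start) were at hand for 8 of the 10 genes, and *Nfkb1* and *Relb* were not matched. On either strand, *Traf3*, *Nfkb2*, *Rel*, *Nfkbia* and *Tnfaip3* held at least 1 match, and *Traf1*, *Traf2* and *Birc3* held none. Of all 32851 promoters of this length, 8.46% held one, as did 9.55% of the 27025 genes with a promoter. A match is a run of letters and not a measured binding site, and for the promoters without one it says only that these letters were not in this window. One window is shown for each of the 5 genes with a match. The match is in capitals, each sequence is written along the gene's own strand, and bases are counted from the transcription start.
Nfkb2 at chr19:46304688-46304717, + strand, match from base -39: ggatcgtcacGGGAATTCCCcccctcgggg
Rel at chr11:23771042-23771071, - strand, match from base -92: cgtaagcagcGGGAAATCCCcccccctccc
Nfkbia at chr12:55492657-55492686, - strand, match from base -29: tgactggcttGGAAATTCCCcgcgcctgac
Tnfaip3 at chr10:19015403-19015432, - strand, match from base -12: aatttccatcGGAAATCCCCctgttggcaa
Traf3 at chr12:111166350-111166379, + strand, match from base -10: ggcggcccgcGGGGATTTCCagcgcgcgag
In *Nfkbia* and *Tnfaip3* the match is read on the opposite strand. Those shown for *Nfkb2* and *Rel* each overlap a further one, shifted by 1 base and read on the opposite strand. The 3 *Nfkb2* promoters, which belong to alternative starts, each held a match, and 1 of the 2 *Tnfaip3* promoters did.

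Transcripts were counted by unique molecular identifiers (UMIs), and a level is the number of UMIs of a gene per 1000000 UMIs of all genes (CPM), summed over the cells of a class. The wild-type library held 19904506 UMIs in 2804 barcodes and the knockout library 19639995 in 2991. A barcode was kept when it had between 200 and 5000 genes and no more than 20% of UMIs from mitochondrial genes, which left 2714 and 2915 cells. No doublet caller was run, and 16 barcodes occurred in both libraries. A cell counted as a CD8 T cell with at least 2 *Cd8a* and *Cd8b1* UMIs and none of *Cd4* or *Foxp3*, and as a Treg with no *Cd8a* or *Cd8b1* UMI and at least 1 of *Cd4*, *Foxp3*, *Il2ra* and *Ikzf2*. This gave 891 wild-type and 1200 knockout CD8 T cells (medians of 6076 and 5275 UMIs per cell) and 1552 and 1444 Tregs (4302 and 4308.5). In each library 271 cells fell in neither class, among them 36 wild-type and 39 knockout cells that carried UMIs of both lineages. Markers outside that rule bore the classes out: summed over *Nkg7*, *Ccl5*, *Gzmk*, *Klrd1*, *Cd7* and *Eomes*, the level was 13736 CPM in wild-type CD8 T cells and 1109 in Tregs (6839 and 678 in the knockout), and over *Ctla4*, *Tnfrsf18*, *Tnfrsf4*, *Capg*, *Ikzf4* and *Izumo1r* it was 625 against 4849 (599 and 4041). *Tnfrsf9* itself was at 106 CPM in wild-type and 32.0 in knockout CD8 T cells, and at 337 and 110 CPM in Tregs, so transcript remained in the knockout. Markers of myeloid, dendritic, acinar and endocrine cells were followed with 20 genes in 4 lists. Each list summed to at most 57.3 CPM in either lineage of either library. The dendritic list was higher in CD8 T cells than in Tregs, at 26.7 against 1.80 CPM (21.2 against 1.96 in the knockout). So was the myeloid list, at 26.7 against 6.52 CPM (16.2 against 9.94). The endocrine list was lower in CD8 T cells, at 13.0 against 16.1 CPM (10.6 against 22.8). A list of 4 B cell genes summed to 4.70 CPM in wild-type and 8.60 in knockout CD8 T cells, and to 2.25 and 2.70 in Tregs. The acinar list was at 57.3 CPM in wild-type and 21.7 in knockout CD8 T cells, and at 14.2 and 22.8 in Tregs, and the part of such RNA in the results was not tested. All intervals below are exact 95% intervals that cover counting error only, not the spread between mice, and with 1 library per genotype no test was made. A gene is said to be past the fold limit when its CPM differ by at least 1.5-fold, and the share of all genes past that limit, among those with at least 50 UMIs over the classes compared, is given beside each count.

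Every one of the 10 genes had a lower level in CD8 T cells than in Tregs, in both libraries. In the wild type all 10 were past the fold limit in that direction, against 17.1% of 10026 genes that were lower in CD8 T cells and 24.4% that were past the limit in either direction. The log2 ratio of CD8 T cells over Tregs ran from -1.56 to -0.68 with a median of -1.11, where the median of all genes was -0.11. In the knockout 6 of 10 were past the limit (15.5% of 10097 genes were lower, 22.1% past it in either direction), with ratios from -1.05 to -0.25 and a median of -0.65, where all genes had -0.15. Scaling by trimmed means in place of UMI totals moved every ratio up, by 0.10 for the wild type and 0.16 for the knockout, and the 10 genes stayed lower in CD8 T cells. With it 9 genes were past the limit in the wild type, without *Tnfaip3* (-0.58), and 4 in the knockout, without *Traf1* (-0.49) and *Nfkb2* (-0.51). In the wild type the count was also 9 after thinning (without *Traf2*, -0.47) and, without *Tnfaip3*, when naive-marker cells were left out (-0.49) or the lineage rule was stricter (-0.53). In the knockout it was 3 when naive-marker cells were left out, without *Traf1* (-0.42), *Nfkb1* (-0.57) and *Nfkb2* (-0.56).

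Among the adaptors next to the receptor, *Traf1* (ENSMUSG00000026875, GRCm38 chr2:34941750-34961772), which is itself induced on activation, was at 113 CPM in wild-type CD8 T cells, 221 in wild-type Tregs, 129 in knockout CD8 T cells and 202 in knockout Tregs. *Traf2* (ENSMUSG00000026942, chr2:25517982-25546940), the adaptor that brings in the cIAPs, had the same order in both libraries, with 30.4 against 50.1 CPM in the wild type and 26.7 against 36.2 in the knockout. *Traf3* (ENSMUSG00000021277, chr12:111166370-111267153), the brake on the noncanonical branch, was at 85.1 CPM in CD8 T cells and 184 in Tregs of the wild type, and at 104 and 182 in the knockout. The 4 intervals of *Traf3* did not overlap between lineages, and its Treg levels were the same in both libraries within counting error. *Birc3* (ENSMUSG00000032000, chr9:7848699-7873186), the ligase cIAP2 and a known NF-κB target, was 2.85-fold lower in wild-type CD8 T cells than in Tregs (58.2 against 166 CPM, log2 ratio -1.51, -1.67 to -1.35) and 2.07-fold lower in the knockout (86.0 against 178, -1.05, -1.18 to -0.91).

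**Figure D1:**
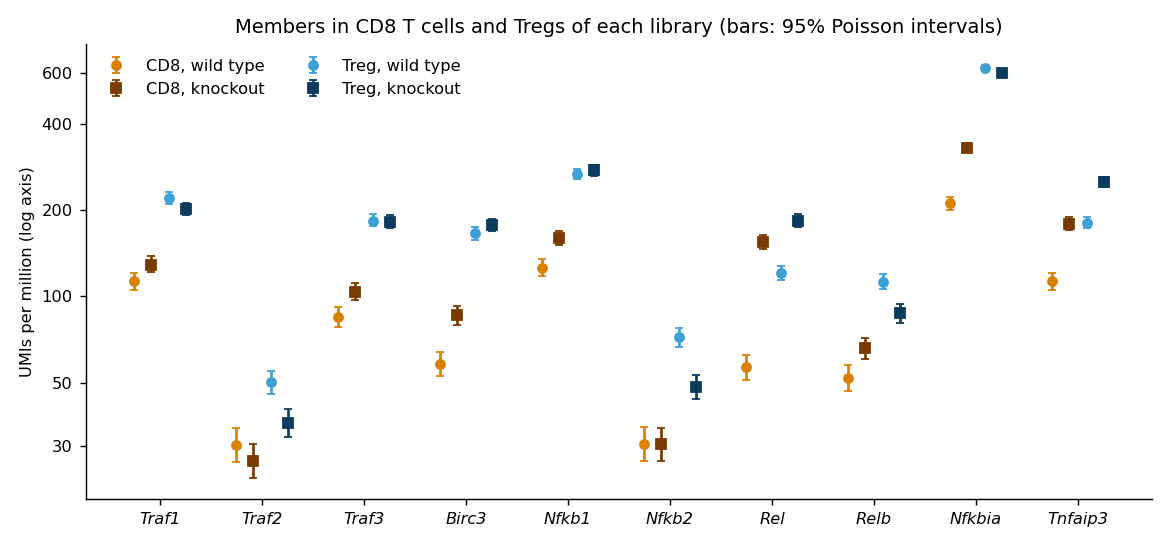
Level of each gene (CPM, log axis) in CD8 T cells and Tregs of the wild-type and knockout libraries, 1 library per genotype, with 95% Poisson intervals as bars. Each gene sits lower in CD8 T cells than in Tregs of the same library, and *Rel* in CD8 T cells is at 56.5 CPM in the wild type against 155 in the knockout.

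Of the DNA-binding subunits, *Nfkb1* (ENSMUSG00000028163, chr3:135584655-135691547) was at 126 CPM in CD8 T cells and 267 in Tregs of the wild type and at 160 and 276 in the knockout. *Nfkb2* (ENSMUSG00000025225, chr19:46304320-46312385) had 30.5 CPM in the CD8 T cells of either library, against 72.0 in wild-type and 48.3 in knockout Tregs, so the lineages lay closer together in the knockout through the lower Treg level. *Relb* (ENSMUSG00000002983, chr7:19606217-19629438), its partner, moved from both sides, with 51.9 and 112 CPM in wild-type CD8 T cells and Tregs and 65.9 and 87.2 in the knockout. *Rel* (ENSMUSG00000020275, chr11:23736847-23770970) was at 56.5 CPM in wild-type CD8 T cells and 121 in wild-type Tregs, a log2 ratio of -1.10 (-1.27 to -0.93). In the knockout its levels were 155 and 184 CPM, a ratio of -0.25 (-0.36 to -0.14), the smallest lineage difference among the 10 genes. That knockout value is the only one of the 20 lineage ratios that changed direction under an alternative: without cells carrying naive markers it was 0.20.

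The inhibitors followed the same order. *Nfkbia* (ENSMUSG00000021025, chr12:55489410-55492647) had 212 CPM in wild-type CD8 T cells and 627 in wild-type Tregs, a 2.96-fold difference, and 330 and 604 in the knockout. *Tnfaip3* (ENSMUSG00000019850, chr10:19000910-19015657) had 113 and 181 CPM in the wild type and 179 and 251 in the knockout, so that knockout CD8 T cells reached the level of wild-type Tregs. *Nfkbia* UMIs were found in 59.5% of wild-type CD8 T cells and 77.7% of wild-type Tregs. With every cell reduced at random to 2000 UMIs, and 17 and 76 shallower cells left out, the shares were 28.1% and 59.0%. For comparison, *Lyz2*, a myeloid gene that T cells do not use, had a UMI in 0.449% and 0.258% of these cells, the islet hormone gene *Ins2* in 1.57% and 1.87%, and the acinar gene *Prss2* in 5.27% and 1.74%. *Cd74*, a gene of antigen-presenting cells, had one in 7.18% and 28.0%. The 3 cells with the most *Cd74* held 41.8% of its UMIs in wild-type and 51.0% in knockout CD8 T cells. The immediate early and heat shock genes, a readout of handling as well as of activation, summed to 1399 CPM in wild-type CD8 T cells and 1651 in Tregs. In the knockout the sums were 2161 and 1786. Of the 11 with enough UMIs, 2 were higher in wild-type CD8 T cells past the fold limit and 2 lower. In the knockout 4 were higher and 0 lower. The part of handling in the lineage ratios was not tested.

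Comparing the genotypes within CD8 T cells, 8 of the 10 genes had a higher level in the knockout library beyond counting error, and for *Nfkb2* and *Traf2* the interval held 0. Of all genes compared, 26.2% had an interval above 0, a share that depends on how many UMIs a gene has. *Rel* stood out by size. It had 396 UMIs in wild-type cells (56.5 CPM, 51.0 to 62.3) and 1223 in knockout cells (155 CPM, 146 to 164), a 2.74-fold difference and a log2 ratio of 1.45 (1.29 to 1.62). Of the 9770 genes compared in these cells, 99.3% had a lower ratio. No small group of cells carried it: the 3 cells with the most *Rel* held 5.56% of its UMIs in the wild-type library and 3.60% in the other. At 2000 UMIs per cell, 10.3% of wild-type CD8 T cells and 21.3% of knockout CD8 T cells had a *Rel* UMI (28.8% and 49.8% without thinning).

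Both feedback inhibitors were higher in knockout CD8 T cells as well. *Nfkbia* was at 212 CPM (201 to 223) in wild-type cells and 330 (318 to 343) in knockout cells, a log2 ratio of 0.64 (0.55 to 0.73), and *Tnfaip3* at 113 (105 to 121) and 179 (170 to 189), a ratio of 0.67 (0.54 to 0.79). These and *Rel* were the 3 genes past the fold limit, against 18.2% of all genes (11.4% higher in the knockout). *Rel* kept that place in all 9 alternatives, but *Nfkbia* came under the limit in 4 of them (lowest 0.51, without cycling cells) and *Tnfaip3* in 3 (lowest 0.50, with the stricter lineage rule). *Birc3* lay just under it with 0.56 (0.38 to 0.74), followed by *Nfkb1* (0.34, 0.21 to 0.46), *Relb* (0.34, 0.15 to 0.54), *Traf3* (0.29, 0.14 to 0.44) and *Traf1* (0.20, 0.06 to 0.33). *Nfkb2* had a ratio of 0.00 (-0.27 to 0.27) and *Traf2* of -0.19 (-0.47 to 0.09). The median of the 10 genes was 0.34, and that of all genes 0.03. With cells thinned to equal depth *Traf1* came to -0.03, *Traf2* to -0.83 and *Nfkb1* to 0.04. *Nfkb1* was also at 0.18 without cycling cells and at 0.14 after removal of a trend over gene length and GC content, which brought *Traf3* to 0.10, so the sizes for these 4 genes depended on the processing.

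Other features of the CD8 T cells moved between the libraries in parallel. Cells with at least 2 UMIs of a set of naive markers that includes *Ccr7*, *Lef1* and *S1pr1* were 32.9% of the wild-type CD8 T cells and 61.3% of those in the knockout, and cycling cells 24.5% and 11.0%. The 6 effector and cytotoxic markers named above summed to a log2 ratio of -1.01, the 12 immediate early and heat shock genes to 0.63 (6 of the 11 with enough UMIs past the fold limit, all higher), and the nuclear RNA *Malat1* was at 16377 and 21588 CPM. The B cell list had a ratio of 0.87 (0.25 to 1.52). The acinar (-1.40, -1.66 to -1.14), myeloid (-0.72, -1.06 to -0.39) and dendritic (-0.33, -0.64 to -0.02) lists were lower in the knockout. In the cells at or below the median immediate early share of their own library, the log2 ratio was 1.73 for *Rel*, 0.73 for *Nfkbia* and 0.67 for *Tnfaip3*. A trend of the ratios over gene span, transcript length and GC content, which carried 12.6% of their variance, left 1.26 for *Rel*, 0.83 for *Nfkbia* and 0.62 for *Tnfaip3* once removed, and brought *Birc3* to 0.59. Beyond these values, the part of cell state and handling in the differences was not tested.

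**Figure D2:**
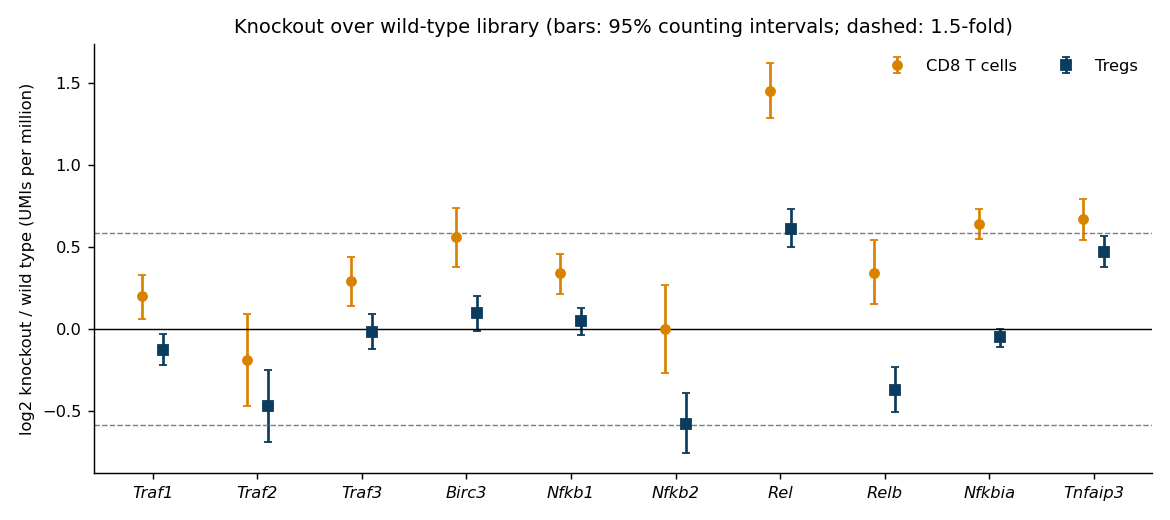
Log2 ratio of knockout over wild-type level for each gene in CD8 T cells and in Tregs, with 95% counting intervals as bars and dashed lines at 1.5-fold. *Rel* and *Tnfaip3* lie above 0 in both lineages, while *Nfkb2*, *Relb* and *Traf2* lie below 0 in Tregs with intervals that exclude it.

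In Tregs the genotypes differed in both directions. *Rel* was again higher in the knockout, with 1073 UMIs in wild-type Tregs (121 CPM, 114 to 128) and 1503 in knockout Tregs (184 CPM, 175 to 194), a log2 ratio of 0.61 (0.50 to 0.73). *Tnfaip3* followed with 181 CPM (173 to 190) and 251 (241 to 262), a ratio of 0.47 (0.38 to 0.57). The wild-type and knockout intervals of both genes lay apart. The noncanonical pair and *Traf2* were lower in the knockout: *Nfkb2* had 72.0 CPM (66.5 to 77.8) in wild-type Tregs and 48.3 (43.7 to 53.3) in knockout Tregs, a ratio of -0.58 (-0.76 to -0.39). *Relb* went from 112 to 87.2 CPM (-0.37, -0.51 to -0.23) and *Traf2* from 50.1 to 36.2 CPM (-0.47, -0.69 to -0.25). Only 2.33%, 6.78% and 3.76% of the 10157 genes compared had a lower ratio than *Nfkb2*, *Relb* and *Traf2*.

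The remaining genes differed little in Tregs. *Traf1* had a ratio of -0.13 (-0.22 to -0.03), and *Birc3* (0.10), *Nfkb1* (0.05), *Traf3* (-0.02) and *Nfkbia* (-0.05) had intervals that reached 0. One gene of 10, *Rel*, was past the fold limit, against 7.39% of all genes (5.21% higher and 2.19% lower in the knockout), and the median of the 10 was -0.04 (all genes 0.04). *Rel* came under the limit with trimmed-mean scaling (0.57), without naive-marker cells (0.46) and after removal of the length and GC trend (0.42), which held 16.0% of the variance here. *Nfkb2* lay between -0.62 and -0.41 over 9 alternatives and was past the limit in 3 of them (trimmed-mean scaling, without cycling cells and the stricter lineage rule), so that with trimmed-mean scaling it was the 1 gene past the limit in place of *Rel*. Over the same alternatives *Relb* lay between -0.43 and -0.25, *Traf2* between -0.61 and -0.42 and *Tnfaip3* between 0.41 and 0.50. Immediate early and heat shock genes summed to 1651 CPM in wild-type and 1786 in knockout Tregs (ratio 0.11), and naive-marker cells made up 31.5% and 42.5%. The effector and cytotoxic markers were lower in knockout Tregs (678 against 1109 CPM, ratio -0.71, 3 of 6 past the fold limit). The Treg markers were lower too (-0.26, 0 of 6 past it), as was a list of 3 general T cell genes (-0.30, -0.32 to -0.27). The acinar (0.69) and endocrine (0.50) lists were higher, with 2 genes each past the fold limit. The myeloid list was higher as well (9.94 against 6.52 CPM, ratio 0.61, 0.10 to 1.12). *Cd74* was lower in the knockout, at 137 CPM in wild-type and 69.3 in knockout Tregs, with a UMI in 28.0% and 17.8% of them. The part of these in the differences was not tested.

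*Relb* thus had opposite signs in the 2 lineages beyond counting error. So did *Traf1*, but its CD8 value was 0.01 without cycling cells or with the stricter lineage rule, and -0.14 (-0.36 to 0.09) within naive-marker CD8 T cells. The CD8 value of *Relb* was 0.19 with equal weight per cell and 0.20 without cycling cells. The *Relb* interval excluded 0 within naive-marker CD8 T cells (0.59, 0.23 to 0.98). It held 0 within cycling CD8 T cells (0.28, -0.16 to 0.71) and those of neither kind (0.12, -0.20 to 0.43). In turn, *Nfkb2* was lower in knockout Tregs while its CD8 interval held 0. Whether the genotype differences themselves differ between the lineages was not tested, since there is 1 library of each kind.

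Because the mix of cell states differed between the libraries, levels were also compared within 3 states: naive-marker, cycling (at least 2 UMIs of *Mki67*, *Top2a*, *Birc5*, *Cdk1* and *Ube2c*) and other. *Rel* in CD8 T cells was at 51.6, 46.0 and 73.5 CPM in naive-marker, cycling and other cells of the wild type and at 139, 141 and 201 CPM in those of the knockout. Its log2 ratio was 1.42 (1.11 to 1.76), 1.61 (1.30 to 1.93) and 1.45 (1.19 to 1.72). Over all CD8 T cells it was 1.45 (1.29 to 1.62). Cells can still differ within a state, and the part of cell state in the difference was not tested. *Tnfaip3* (0.82, 0.52 and 0.62) and *Nfkbia* (0.71, 0.82 and 0.39) were higher in the knockout in every state too. Within these states 14.4%, 14.1% and 12.3% of all genes were past the fold limit.

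In Tregs *Rel* had ratios of 0.73 (0.55 to 0.91) in naive-marker, 0.76 (0.50 to 1.03) in cycling and 0.39 (0.21 to 0.58) in other cells, with 9.55%, 9.52% and 9.07% of all genes past the fold limit. *Nfkb2* was lower in the knockout in each, at 63.0 against 43.0 CPM, 62.6 against 46.4 and 84.6 against 56.1 (ratios -0.55, -0.43 and -0.59). For *Relb* the ratio was -0.43 and -0.30 in naive-marker and other Tregs, and in cycling Tregs -0.12 with an interval that held 0 (-0.41 to 0.17). *Traf2* behaved alike, with -0.48, -0.49 and, in cycling cells, -0.28 (-0.68 to 0.12).

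**Figure D3:**
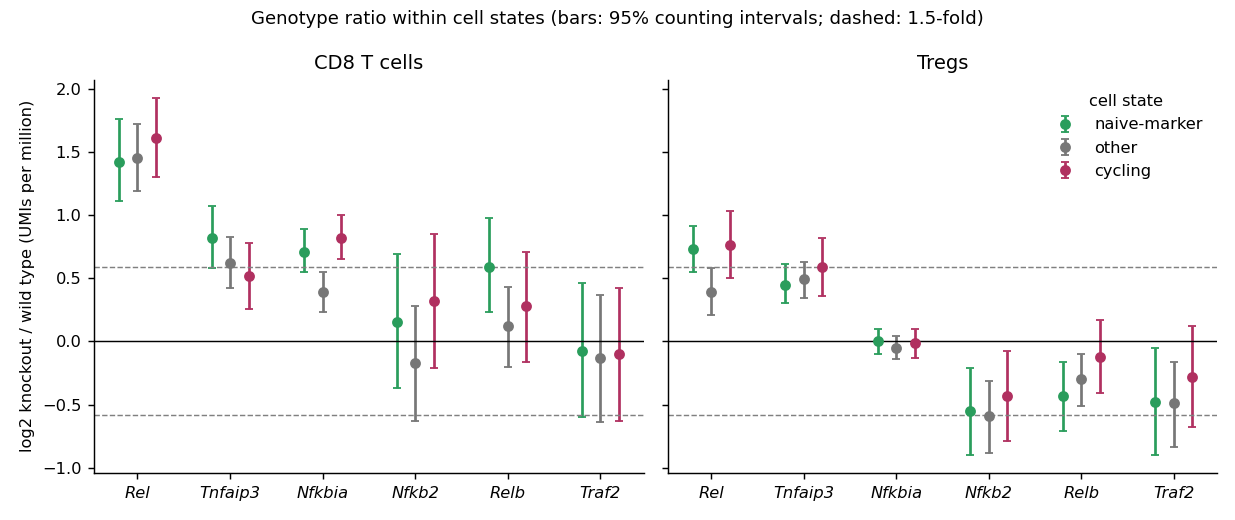
Log2 ratio of knockout over wild-type level of 6 genes within naive-marker, other and cycling CD8 T cells and Tregs, with 95% counting intervals as bars and dashed lines at 1.5-fold. *Rel* lies between 1.42 and 1.61 in the 3 CD8 states, and *Nfkb2* between -0.59 and -0.43 in the 3 Treg states.

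The genes were next set against the *Tnfrsf9* UMIs of the same cell. Of the wild-type Tregs, 779 (50.2%) had at least 1 *Tnfrsf9* UMI and 773 had none, which at this depth does not mean that they lack the transcript. Cells of higher classes were deeper, with a median of 3486 UMIs per cell at 0, 4465.5 at 1, 5793 at 2 to 4 and 6243 at 5 or more *Tnfrsf9* UMIs. *Nfkb1* went from 227 CPM (211 to 243) at 0 through 240 and 288 to 349 (322 to 378) at 5 or more. *Nfkb2* went from 54.1 (46.6 to 62.4) through 68.6 and 77.6 to 105 (89.8 to 121), and *Traf3* from 155 (142 to 169) through 174 and 199 to 237 (214 to 261). *Rel* was higher in each next class as well, with 101, 108, 133 and 158 CPM, as did *Traf2* with 41.0, 48.6, 52.3 and 67.0. *Relb* (86.7, 118, 116 and 155) and *Nfkbia* (526, 680, 633 and 774) were higher at the top than at the bottom with a step back between.

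*Traf1* (217, 225, 210 and 239 CPM) and *Birc3* (177, 158, 153 and 167) had overlapping intervals at the lowest and the highest class, and over all positive cells *Birc3* (-0.16, -0.31 to -0.01) had no settled direction, with 0.15 after thinning and 0.04 with depth weighting. *Tnfaip3* ran the other way, from 216 CPM (201 to 232) at 0 to 160 (141 to 180) at 5 or more. Over all *Tnfrsf9*-positive against negative wild-type Tregs, 1 of 10 genes was past the fold limit (*Nfkb2*, log2 ratio 0.62, 0.37 to 0.88), against 13.6% of all genes (6.74% higher in positive cells). *Relb* had 0.57 (0.37 to 0.77), *Traf2* 0.44 (0.15 to 0.74), and *Rel*, *Traf3*, *Nfkbia* and *Nfkb1* 0.37 to 0.41, all with intervals above 0. The median of the 10 was 0.39, that of all genes -0.01. *Tnfaip3* (-0.43, -0.58 to -0.29) depended on how depth was handled, with -0.04 after thinning and -0.06 when negative cells were weighted to the depth of the positive ones, whereas the *Relb* ratio was 0.88 and 0.73 and that of *Nfkb1* 0.76 and 0.59. *Nfkb2* came under the fold limit with depth weighting (0.50), without naive-marker cells (0.47) and in cells of low immediate early share (0.44). The immediate early and heat shock genes summed to 2035 CPM in negative and 1408 in positive Tregs, and their part in the ratios was not tested. In Tregs of low immediate early share, *Tnfaip3* had a ratio of -0.10. The Treg markers outside the rule were also higher in positive cells, at 5226 against 4252 CPM, as were the effector and cytotoxic markers, at 1215 against 941. Positive cells were more often cycling (17.7% against 8.67%) and less often naive-marker cells (27.6% against 35.4%).

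**Figure D4:**
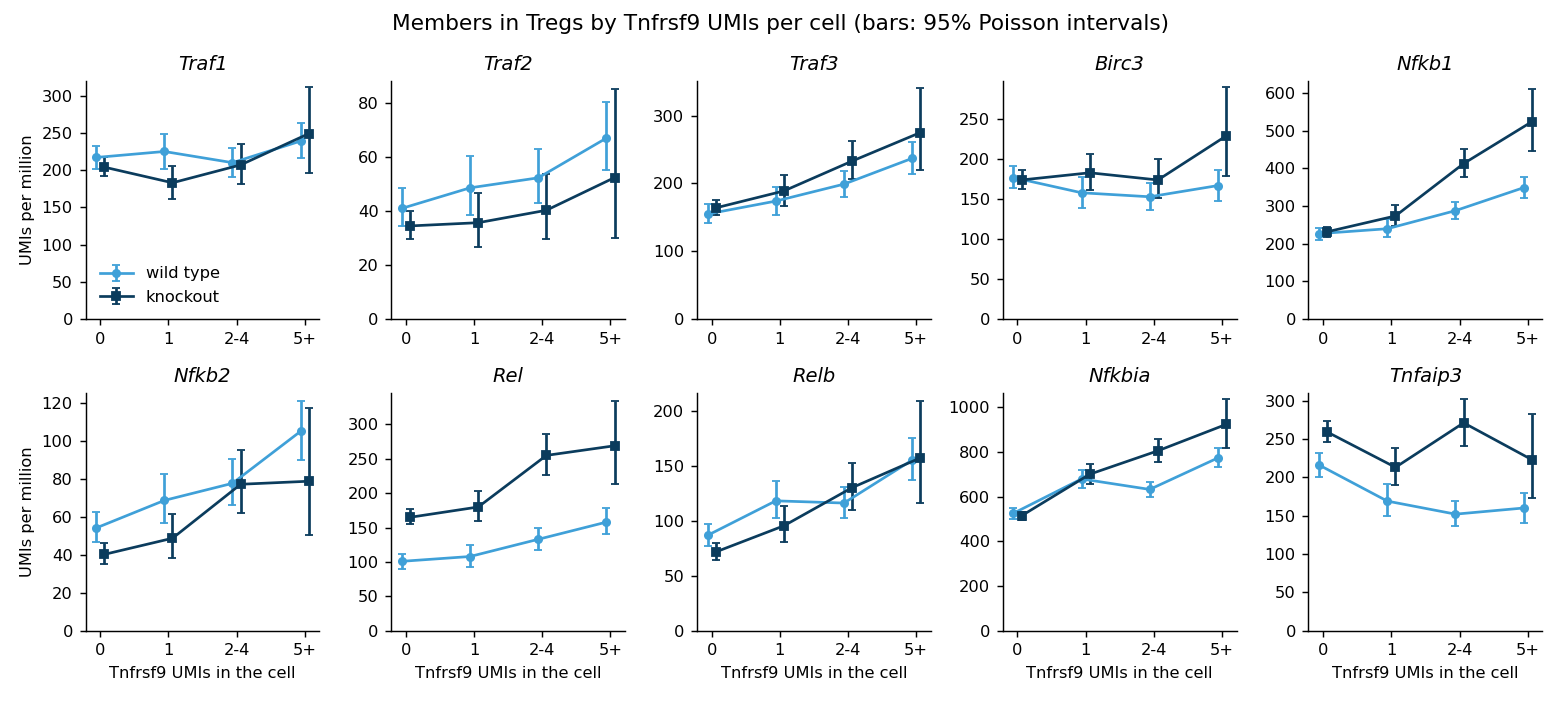
Level of each gene (CPM) in wild-type and knockout Tregs with 0, 1, 2 to 4 and 5 or more *Tnfrsf9* UMIs, with 95% Poisson intervals as bars. *Nfkb1* goes from 227 to 349 CPM in the wild type and from 232 to 524 in the knockout, while *Traf1* has overlapping intervals at both ends.

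In the knockout 428 Tregs (29.6%) had a *Tnfrsf9* UMI and 1016 had none, and 38 had 5 or more. Positive over negative, *Relb* had a log2 ratio of 0.69 (0.47 to 0.90), *Nfkb2* of 0.65 (0.36 to 0.94) and *Nfkb1* of 0.61 (0.49 to 0.74), and these 3 of 10 were past the fold limit, against 7.49% of all genes (3.70% higher in positive cells). None of the 3 kept that place throughout: without naive-marker cells *Relb* came to 0.50 and *Nfkb2* to 0.43, *Nfkb2* to 0.58 with depth weighting, and *Nfkb1* to 0.55 in cells of low immediate early share. *Nfkbia* had 0.57 (0.49 to 0.65), *Rel* 0.40 (0.25 to 0.55) and *Traf3* 0.39 (0.24 to 0.54), while *Traf1* (-0.04), *Birc3* (0.08), *Traf2* (0.19) and *Tnfaip3* (-0.13) had intervals that reached 0. Whether the ratios differ between the libraries was not tested. By class, *Nfkb1* was at 232, 274, 413 and 524 CPM, *Relb* at 71.6, 95.4, 130 and 157, and *Nfkbia* at 515, 701, 806 and 924. The median of the 10 was 0.40 (all genes 0.01). Immediate early and heat shock genes were again lower in positive cells (1607 against 1884 CPM), while the Treg markers (4884 against 3575 CPM) and the effector and cytotoxic markers (861 against 577) were higher and cycling cells more frequent (22.0% against 12.9%). Naive-marker cells were 32.5% of positive and 46.8% of negative cells.

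Within a *Tnfrsf9* class the genotypes can be set side by side, although a class need not hold like cells in both libraries, because the knockout has less transcript. In Tregs with no *Tnfrsf9* UMI *Rel* was at 101 CPM in wild-type and 165 in knockout cells, and with 2 to 4 UMIs at 133 and 255. *Nfkb2* was at 54.1 and 40.2 CPM with no UMI, with intervals of 46.6 to 62.4 and 35.0 to 46.0, but at 77.6 and 77.1 CPM with 2 to 4 UMIs. *Relb* showed the same, with 86.7 and 71.6 CPM at 0 and 116 and 130 at 2 to 4. For both genes the knockout value was the lower one with no or 1 *Tnfrsf9* UMI (at 1 UMI, *Nfkb2* 68.6 and 48.7 CPM and *Relb* 118 and 95.4). With 5 or more UMIs *Nfkb2* was at 105 CPM (89.8 to 121) in wild-type cells and 78.7 (50.4 to 117) in the 38 knockout cells, and *Relb* at 155 and 157. Of the *Nfkb2* and *Relb* pairs only the *Nfkb2* intervals at 0 lay apart, while those of *Rel* lay apart in all 4 classes.

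Of the wild-type CD8 T cells 240 (26.9%) had a *Tnfrsf9* UMI. There 0 of 10 genes were past the fold limit between positive and negative cells, against 16.9% of all genes, and the median of the 10 was -0.08 (all genes 0.01). *Birc3* (-0.37, -0.68 to -0.06) and *Traf1* (-0.26, -0.47 to -0.04) were lower in positive cells beyond counting error, but came to -0.07 and -0.01 without cycling cells. The 43 cells with 5 or more UMIs had 181 CPM of *Nfkb1* (149 to 219) against 128 (117 to 139) in negative cells, 60.4 of *Nfkb2* (42.3 to 83.6) against 27.8 (23.1 to 33.2), and 90.5 of *Rel* (68.0 to 118) against 55.3 (48.6 to 62.7). The classes with 1 and with 2 to 4 UMIs had levels at or below those of negative cells for these genes (for example 108 and 108 CPM of *Nfkb1*). Positive wild-type CD8 T cells were more often cycling than negative ones (42.1% against 18.0%) and had a median of 9706 UMIs against 5609. Fewer of them were naive-marker cells (13.8% against 39.9%), and the immediate early and heat shock genes were lower (1009 against 1632 CPM, 6 past the fold limit). Also lower were the dendritic (12.6 against 35.1 CPM), endocrine (9.15 against 15.3) and B cell (1.91 against 6.38) lists. The part of these in the ratios was not tested.

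In the knockout 142 CD8 T cells (11.8%) had a *Tnfrsf9* UMI. *Rel* was at 142 CPM (133 to 151) in negative cells, 176 with 1 UMI, 216 with 2 to 4 and 438 (332 to 567) in the 9 cells with 5 or more, of which 66.7% were cycling. The log2 ratio of positive over negative cells was 0.58 for *Rel* (0.39 to 0.77), 0.35 for *Traf3* (0.11 to 0.59), 0.26 for *Nfkbia* (0.12 to 0.40) and 0.25 for *Nfkb1* (0.05 to 0.44), and the other 6 had intervals that held 0. Positive cells were less often naive-marker cells (32.4% against 65.2%) and more often cycling (28.2% against 8.70%). The Treg markers were higher in them (763 against 562 CPM, 4 of 6 past the fold limit), as was the acinar list (47.7 against 15.9 CPM), and the immediate early and heat shock genes were lower (1622 against 2282 CPM). The dendritic (0 against 26.0 CPM) and B cell (4.15 against 9.59 CPM) lists were lower too. The part of these in the ratios was not tested. Of the 10 genes, 0 were past the fold limit, against 19.0% of all genes, although *Rel* lay just under it and was past it in 8 of 9 alternatives. Thinned to 2000 UMIs only 45 positive cells were left, and the ratios then rest on few UMIs.

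**Figure D5:**
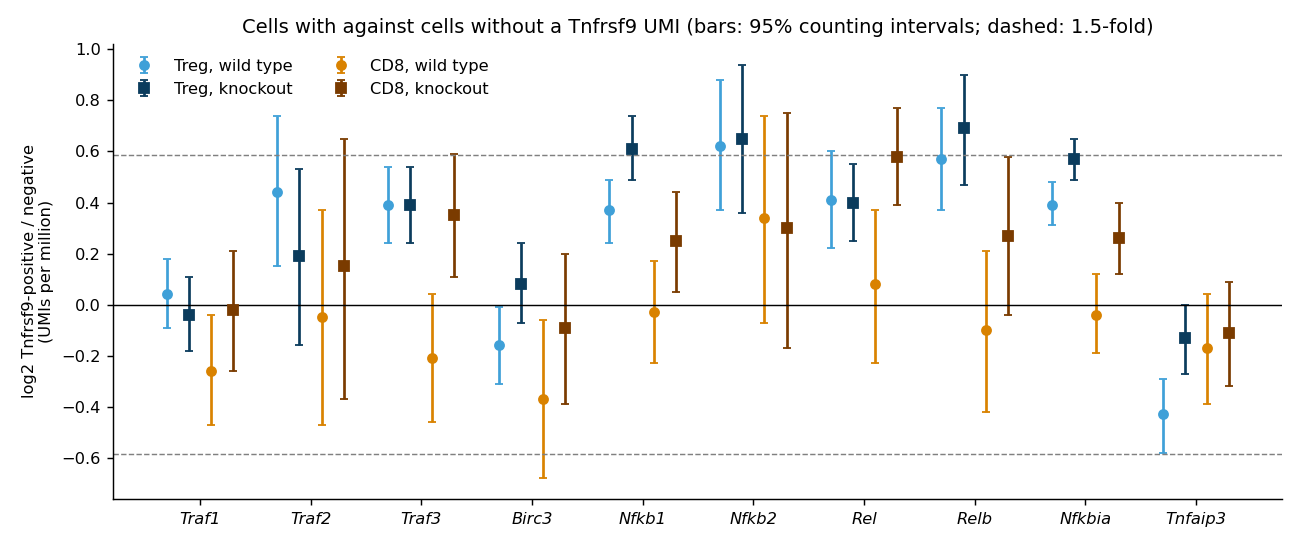
Log2 ratio of the level in cells with at least 1 *Tnfrsf9* UMI over cells with none, for Tregs and CD8 T cells of both libraries, with 95% counting intervals as bars and dashed lines at 1.5-fold. *Nfkb2*, *Relb*, *Nfkb1*, *Nfkbia*, *Rel* and *Traf3* lie above 0 in the Tregs of both libraries, with intervals that exclude it.

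A further 40 genes of the pathway, in 4 lists, gave the setting for the 10. Between lineages in the wild type, 17 of the 40 were lower in CD8 T cells past the fold limit and 3 higher, with a median of -0.40, where 17.1% of all genes were lower and 7.37% higher with a median of -0.11. Among those near the receptor, *Tank*, which binds TRAFs, had 92.8 CPM in CD8 T cells and 216 in Tregs and *Birc2* 40.1 and 86.8. Among the inhibitors of the IκB family, *Nfkbie* had 17.2 and 40.9 CPM and *Nfkbid* 15.8 and 33.6. Of the brakes, *N4bp1* had 27.8 and 81.9 CPM and *Tax1bp1*, an A20 cofactor, 113 and 247. Downstream, the survival gene *Bcl2l1* had 18.8 and 45.7 CPM and *Cd83* 7.27 and 61.0, whereas *Ier3* (28.4 and 1.46) and *Bcl2a1d* (140 and 71.4) were higher in CD8 T cells; *Bcl2a1d* has near-identical copies, so its counts are uncertain. In the knockout 12 were lower and 3 higher, where 15.5% and 6.57% of all genes were, with *Tank* (106 and 249), *Bcl3* (30.3 and 63.7), *N4bp1* (29.1 and 67.0) and *Bcl2l1* (15.0 and 45.6) among the lower ones.

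Between genotypes 4 of these 40 genes were past the fold limit in CD8 T cells, all higher in the knockout, a share no larger than that of all genes (18.2%, 11.4% higher). *Birc2*, which lies next to *Birc3* and encodes cIAP1, went from 40.1 to 91.5 CPM (log2 ratio 1.19, 0.99 to 1.40). *Nfkbiz*, an atypical IκB, went from 56.6 to 105 CPM (0.90), *Zc3h12a*, the RNase Regnase-1 that degrades *Rel* and *Nfkbiz* transcripts among others, from 16.0 to 29.7 (0.90), and the transcription factor gene *Irf4* from 26.8 to 40.5 (0.59). The other 36 lay within the fold limit, and the median of the 40 was 0.15. None of the 39 with enough UMIs was past it in Tregs (median 0.01, range -0.42 to 0.56), against the 7.39% of all genes given above.

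By *Tnfrsf9*, 3 of 39 genes were past the limit in wild-type Tregs, a smaller share than the 13.6% of all genes: *Traf4* (17.7 CPM in negative and 29.7 in positive cells) and *Bcl2a1b* (189 and 295) were higher and *Map3k14*, the gene of the noncanonical kinase NIK, lower (59.3 and 36.1). The counts of *Bcl2a1b*, a near-identical copy of *Bcl2a1d*, are uncertain too. In knockout Tregs 5 of 39 were, against 7.49% of all genes, with *N4bp1* (54.1 and 90.2), *Tnip2* (23.4 and 37.9), *Nfkbid* (28.4 and 44.1) and *Bcl2l1* (37.3 and 60.6) higher and *Tnf* (15.8 and 8.95) lower. In CD8 T cells 5 of 40 were past it in the wild type (all genes 16.9%) and 8 of 40 in the knockout (all genes 19.0%), the 8 being 7 higher and 1 lower in positive cells (8.75% of all genes were higher). In the knockout 5 of the 10 survival and other target genes were higher, with a median of 0.59, and *Bcl2a1d* was higher in positive cells of both (107 and 195 CPM, and 99.4 and 241).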

How the data were processed

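Per the file headers and the submitters' processing notes, the authors deposited unnormalized UMI counts per gene and barcode from Cell Ranger 7.0.0 (mm10). Whether intron reads were counted is not given in the sources used here. Cells of the kept classes were summed per library, and CPM, exact Poisson and binomial intervals and exact conditional intervals of log2 ratios were computed with Python 3.11.15, numpy 2.4.6 and scipy 1.17.1, after the interval step was tested on simulated data. The genes, lists and tests were chosen with earlier results of these data known. Alternatives were stricter limits on cells (500 to 4000 genes, at most 10% mitochondrial UMIs), TMM factors (edgeR 4.0.16, R 4.3.3), equal weight per cell, cells thinned to 2000 UMIs, classes without cycling or naive-marker cells, cells of low immediate early share, a stricter lineage rule, at least 2 *Tnfrsf9* UMIs, depth weighting over 5 bins and a minimum of 20 UMIs. Removal of a length and GC trend was added after seeing the data, with GENCODE vM21 annotation. All 10 genes were named. From the other pathway lists up to 2 genes with the highest and 2 with the lowest ratios past 1.5-fold were named per list, in part. One further gene of the naive-marker set is not reported here.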

Additional observations from a re-analysis of the deposited data

Results flagged for a closer look

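*Traf1* and *Relb* were singled out because their knockout over wild-type ratios had opposite signs in the 2 lineages with intervals that excluded 0. The log2 ratio of *Relb* was 0.34 in CD8 T cells and -0.37 in Tregs. Its CD8 value came to 0.19 with equal weight per cell and to 0.20 without cycling cells. The *Relb* interval held 0 within cycling (0.28) and other (0.12) CD8 T cells and within cycling Tregs (-0.12). The log2 ratio of *Traf1* was 0.20 in CD8 T cells and -0.13 in Tregs. Its CD8 value came to -0.03 when cells were thinned to equal depth and to 0.01 without cycling cells or with the stricter lineage rule. The difference between the lineages was not tested, because each lineage has 1 library per genotype.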

How the results depend on the processing

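Values here are counts of the 10 genes past 1.5-fold unless said otherwise. Between genotypes in CD8 T cells, 3 became 1 without cycling cells, and 2 with the stricter cell limits, TMM factors, equal weight or the stricter lineage rule. The count was 4 after thinning or removal of the length and GC trend. After thinning, *Rel*, *Birc3* and *Nfkbia* were higher in the knockout and *Traf2* lower (-0.83), with *Tnfaip3* under the limit (0.57). In Tregs, 1 became 2 with equal weight per cell, without cycling cells or with the stricter lineage rule. The gene added to *Rel* was lower in the knockout each time. It was *Traf2* with equal weight (-0.61), and *Nfkb2* without cycling cells (-0.62) or with the stricter lineage rule (-0.60). The count was 0 without naive-marker cells or, in the alternative added after seeing the data, after removal of the length and GC trend. Between lineages in the knockout, 6 became 3 without naive-marker cells, 4 with TMM factors, 5 at low immediate early share, 7 with equal weight or without cycling cells and 8 after thinning. By *Tnfrsf9* in wild-type Tregs, 1 became 2 with the stricter cell limits, with TMM factors, without cycling cells or with at least 2 *Tnfrsf9* UMIs, 3 with equal weight or depth weighting (*Nfkb2* not among them with depth weighting), 6 after thinning, and 0 without naive-marker cells or at low immediate early share. In knockout Tregs 3 became 5 after thinning or with at least 2 *Tnfrsf9* UMIs, and each of the 3 genes came under the limit in at least 1 alternative. Without naive-marker cells *Nfkb2* and *Relb* came under it while *Nfkbia* was past it. At low immediate early share *Nfkb1* came under it and no other gene was added. In wild-type CD8 T cells 0 became 1 with the stricter cell limits or without cycling cells and 2 after thinning. In knockout CD8 T cells 0 became 1 with the stricter cell limits, with equal weight, without cycling cells, without naive-marker cells, at low immediate early share or with depth weighting, 2 with at least 2 *Tnfrsf9* UMIs and 5 after thinning, where *Rel*, *Traf3* and *Nfkb1* were higher but *Traf2* (-2.01, from 0.15) and *Nfkb2* (-2.36, from 0.30) turned lower. The share of all genes past the limit by *Tnfrsf9* in knockout Tregs was 11.4% with a minimum of 20 UMIs in place of 7.49%. The cause of these changes was not tested. Of the ratios past 1.5-fold in the values as reported, none changed sign in any alternative run. *Rel* in CD8 T cells stayed past the limit in all 9, from 1.26 to 1.73. No paired analysis was possible because each genotype has 1 library, and for the same reason no library could be left out. *Nfkb2* and *Traf2* had the fewest UMIs (211 to 241 in CD8 T cells), so differences in them under their intervals were not detectable at this depth.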
